A study of Homo sapiens with 20 samples.

Results

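Untreated control HCT-116 cells without FBXW7 had fewer listed H3K27ac peaks and super-enhancers (SEs) than their wild-type (WT) counterparts, and almost every region listed in both knockout (KO) libraries was also listed in both WT libraries. The HCT-116 line was derived from a human colorectal carcinoma. H3K27ac, the acetylation of histone H3 at lysine 27, was measured by chromatin immunoprecipitation and sequencing. The comparison used 4 of the 16 libraries with peak lists: WT esiCT UNT replicates A and B, and KO esiCT UNT replicates A and B. Cells of both groups had been transfected for 48 h with a control pool of enzymatically made small interfering RNAs (esiCT) and were left untreated (UNT), so they differed by the FBXW7 genotype. The other 12 libraries were made from WT or KO cells that received esiRNAs against HDAC4 (esiHDAC4), 50 µM oxaliplatin (OXPT) for the last 24 h, or both. The KO cells were a purchased FBXW7-/- line, and a single line of each genotype carries every difference between the lines together with the loss of FBXW7. The study calls A and B biological replicates. The labels say that 3 experiments were pooled and do not say how the letters A and B relate to them. How far the spread between the letters is biological or technical could therefore not be told.

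The 4 peak lists were merged wherever peaks overlapped by at least 1 bp, which gave 35080 peak regions, and the SE lists gave 1414 SE regions in the same way. Regions were then chosen by the libraries that listed them. Of the peak regions, 7823 were listed in both WT libraries and neither KO library (WT only), 30 were listed in both KO libraries and neither WT library (KO only), and 2543 were listed in all 4. Of the SE regions, 354 were WT only, 4 were KO only and 140 were listed in all 4. Lists of all 16 libraries together merged into 58859 peak regions and 1873 SE regions.

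FBXW7 is the substrate-binding subunit of an SCF ubiquitin ligase, which marks proteins such as MYC, cyclin E, JUN and NOTCH for degradation, and it is a tumour suppressor often mutated in colorectal cancer. H3K27ac marks active promoters and enhancers, and SEs are long stretches in which many strongly acetylated enhancers lie close together. A peak is a place where reads pile up above the local background. Its summit fold is the ratio of pileup to background at the highest point, after a small constant is added to each.

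The following windows, read from hg38 on the + strand with 100 bases to each side of a summit, show what the switched regions look like. They were chosen as a pair of WT-only distal regions, the KO-only region at a start site of PCNA, a KO-only distal region in single-copy sequence, the KO-only region listed in every KO library and the strongest KO-only distal region. Capitals mark matches to any of the motif letters given further on. The windows cover chr12:570662-570862 (NINJ2 intron), chr10:4663973-4664173 (nearest start site AKR1E2), chr20:5120206-5120406 (PCNA), chr4:100298485-100298685 (nearest start site DDIT4L), chr3:93470524-93470724 (nearest start site PROS1) and chr10:41088647-41088847 (nearest start site ZNF33B).
WT only, NINJ2: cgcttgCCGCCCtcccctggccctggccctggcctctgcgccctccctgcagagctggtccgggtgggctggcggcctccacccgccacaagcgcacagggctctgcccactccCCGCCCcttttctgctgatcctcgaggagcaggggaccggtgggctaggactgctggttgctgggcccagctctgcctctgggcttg
WT only, AKR1E2: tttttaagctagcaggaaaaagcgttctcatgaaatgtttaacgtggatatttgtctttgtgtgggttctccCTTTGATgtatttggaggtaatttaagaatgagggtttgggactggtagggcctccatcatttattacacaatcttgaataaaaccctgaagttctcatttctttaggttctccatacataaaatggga
KO only, PCNA: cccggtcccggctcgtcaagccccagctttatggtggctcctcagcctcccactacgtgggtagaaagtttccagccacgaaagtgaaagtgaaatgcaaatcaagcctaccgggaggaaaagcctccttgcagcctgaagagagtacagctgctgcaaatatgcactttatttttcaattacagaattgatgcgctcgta
KO only, DDIT4L: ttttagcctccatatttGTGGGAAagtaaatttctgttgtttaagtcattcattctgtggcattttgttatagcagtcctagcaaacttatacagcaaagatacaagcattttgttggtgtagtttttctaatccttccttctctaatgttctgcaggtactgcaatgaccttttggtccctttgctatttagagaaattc
KO only, PROS1: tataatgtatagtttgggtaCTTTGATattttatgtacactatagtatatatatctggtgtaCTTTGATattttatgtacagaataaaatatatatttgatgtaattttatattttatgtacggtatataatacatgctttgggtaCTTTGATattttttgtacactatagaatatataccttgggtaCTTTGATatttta
KO only, ZNF33B: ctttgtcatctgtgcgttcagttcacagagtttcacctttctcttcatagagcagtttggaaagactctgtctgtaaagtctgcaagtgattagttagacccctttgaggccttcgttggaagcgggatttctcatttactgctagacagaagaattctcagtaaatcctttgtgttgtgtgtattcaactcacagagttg

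The WT-only window of NINJ2 was rich in G and C, at 72.1%, and held 10 CpG dinucleotides. It held the KLF/SP letters at 2 places and the AKR1E2 window the TCF/LEF letters at 1 place. The KO-only window near PROS1 had a GC content of 22.4% and held the TCF/LEF letters at 4 places in a repeated unit. The window near ZNF33B lies in sequence whose 31-base words occur, in the median over 150 bases to each side of the summit, 470 times on chromosomes 1 to 22 and X.

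The 4 libraries differed in the number of peaks before any region was compared. WT A had 27927 peaks and WT B 25333, while KO A had 12639 and KO B 6126. Both KO libraries lay below both WT libraries, and KO over WT on the log2 scale averaged -1.60 ± 0.64 (SD, n = 2 pairs of the same letter), with -1.14 for the A pair and -2.05 for the B pair. SEs numbered 758 in WT A, 1265 in WT B, 287 in KO A and 271 in KO B, and KO over WT on the log2 scale averaged -1.81 ± 0.58 (SD, n = 2 pairs). A two-sided exact permutation test that exchanged labels within each letter gave p = 0.5 for both, which is the smallest that 2 pairs allow, and 0.333 is the smallest without the letters. Relative to peaks, SEs were less different, with 27.1 and 49.9 per 1000 peaks in WT A and B and 22.7 and 44.2 in KO A and B. SE calls depend on each library's own ranking of enhancers.

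**Figure D1:**
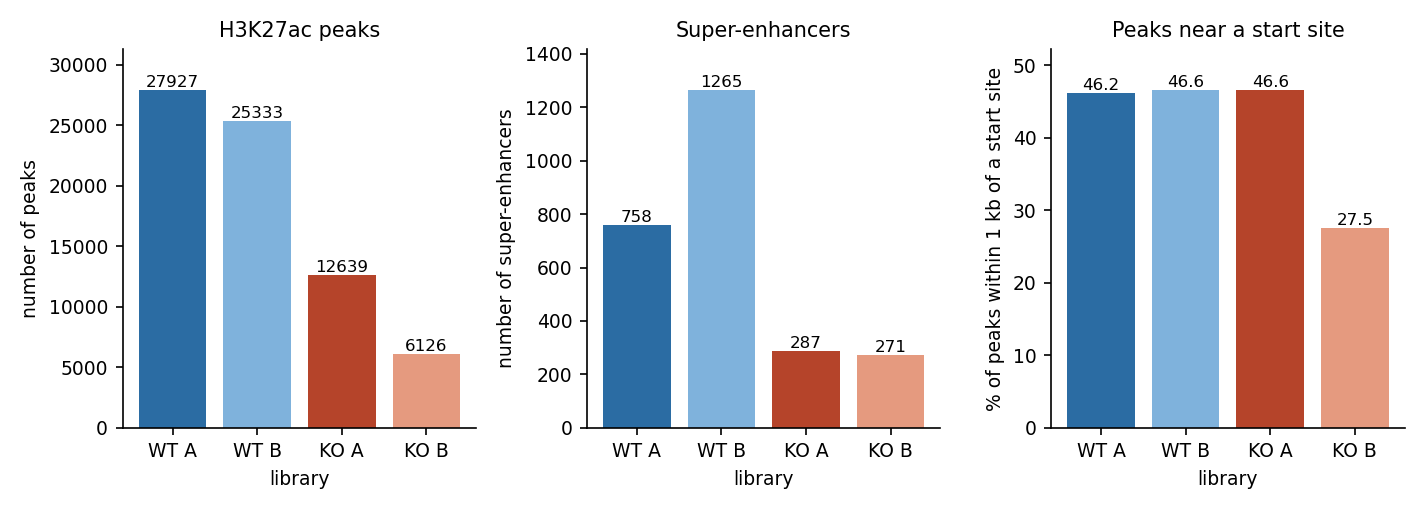
Bars start at 0 and give, for each of the 4 libraries, the number of H3K27ac peaks, the number of super-enhancers and the percentage of peaks within 1 kb of a protein-coding start site. Both KO libraries had fewer peaks and SEs than both WT libraries, and KO B had 27.5% of its peaks at start sites against 46.2% to 46.6% in the others.

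The libraries also differed in depth and base composition. Fold and p-value imply a background pileup for each peak. Its lowest value was 1.95 reads in WT A, 3.07 in WT B, 1.52 in KO A and 1.5 in KO B. A peak at that background needed a fold of at least 3.05, 3.10, 3.57 and 3.6, respectively. Absence from a KO list is therefore no proof that H3K27ac was missing. The median GC content over the 150 bases to each side of the peak summits was 53.5% in WT A, 53.8% in KO A, 49.2% in WT B and 42.5% in KO B. It separated the letters over all 16 libraries, with 51.5% to 54.8% in the 8 of letter A and 42.5% to 49.2% in the 8 of letter B. With the summit reads thinned to the background of the shallowest library, the log2 ratio averaged -1.32 for peaks. The part of base composition was not tested.

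WT-only regions made up 22.3% of all merged peak regions and KO-only regions 0.0855%. For SE regions the shares were 25.0% and 0.283%. The counts moved with the lengths of the lists. With each list cut to its 6126 peaks of smallest p, the length of the shortest, 798 regions were WT only and 200 KO only, and with thinned reads 5567 and 49. Leaving out KO B left 8667 WT-only and 1876 KO-only regions, leaving out KO A 12683 and 739. Leaving out WT A gave 15741 and 79, and leaving out WT B 18360 and 87.

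Most regions of the KO lists were also in a WT list. Of the regions in KO A 81.8% and of those in KO B 83.6% were in at least 1 WT library, while 1842 regions were in KO A alone and 697 in KO B alone. Of 2662 regions in both KO libraries, 95.5% were in both WT libraries, while of 16027 regions in both WT libraries 15.9% were in both KO libraries. A further 4822 regions were listed in both WT libraries and KO A but not KO B, against 839 in both WT libraries and KO B but not KO A. Among SEs, 140 of 162 regions in both KO libraries (86.4%) were in both WT libraries, and 140 of 616 (22.7%) the other way round. Whether a WT region was also listed in KO rose with its strength. Of the regions whose lower WT summit fold was under 3, 5.25% were in both KO libraries, compared with 28.4% at a fold of 5 to 6, 56.4% at 6 to 8 and 87.1% of 116 regions at 8 or more.

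The order of start site and distal regions depended on the measure, and no test was made. Among regions with a lower WT fold of 6 to 8, 44.4% of 621 at start sites and 73.1% of 442 elsewhere were in both KO libraries, and 10.6% and 7.69% were in neither. At a lower WT fold under 3, 4.46% and 5.90% were in both, and 60.1% of start site regions and 72.5% of distal ones in neither. When regions in both WT libraries were split by GC content instead, KO A listed 90.4% of those under 40% GC and 86.5% of those at 60% or more, at a lower WT fold of at least 6. KO B listed 85.5% and 39.9% of the same regions, 249 and 386 in number. At a WT fold under 4 the shares in KO A were 23.7% and 40.2% and those in KO B 20.1% and 6.45%, so the order was opposite in the 2 KO libraries. The relation to GC content is a description over regions that share libraries, and its cause was not tested.

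**Figure D2:**
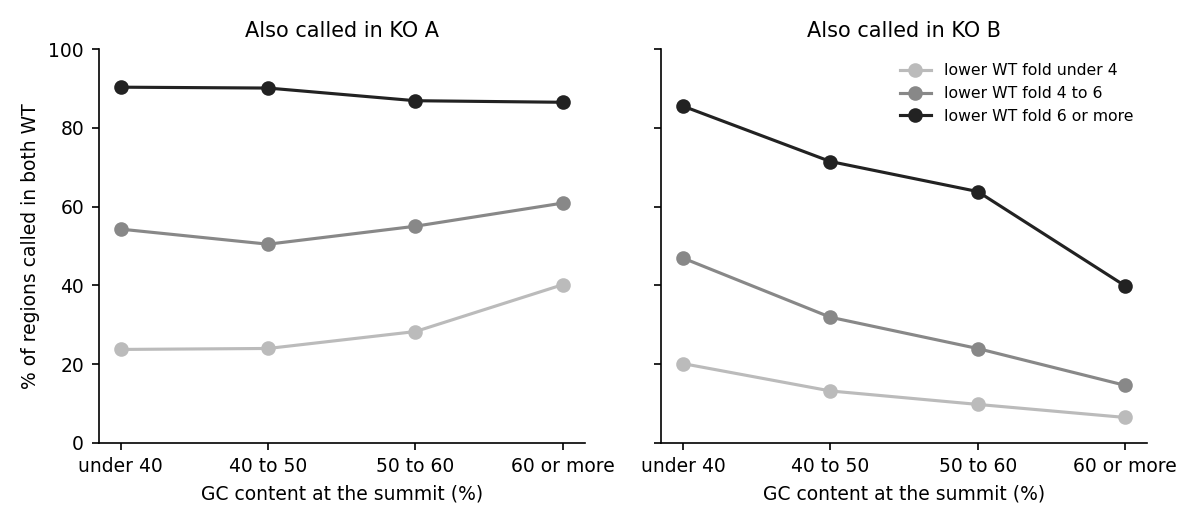
Each point is the percentage of regions listed in both WT libraries that were also listed in KO A (left) or KO B (right), by GC content around the summit, with lines for the lower of both WT summit folds. In KO B the share fell from 85.5% to 39.9% between the lowest and highest GC bins for the strongest regions, while in KO A it went from 90.4% to 86.5%.

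About as many WT-only peak regions lay near start sites as elsewhere. Of the 7823, 4083 lay within 1 kb of a protein-coding start site (52.2%, exact binomial 95% interval 51.1% to 53.3%, counting error only), 317 touched an exon, 1653 lay in introns and 1770 between genes. When the start site had to lie inside the region the share was 23.6%. Of all merged regions 40.6% were within 1 kb of start sites, and of those in all 4 libraries 47.7%. The share of WT-only regions at start sites was 59.5% when KO A was left out, 39.1% without WT A and 41.4% without WT B. WT-only regions occurred on every chromosome, from 19.6% of the regions of chromosome 5 to 24.9% of those of chromosome 16. Chromosome X differed in its share of the lists. It held 1.49% of the peaks of WT A and 1.08% of WT B, but 0.467% of KO A and 0.555% of KO B. Of its regions 2.42% were in all 4 libraries, the lowest share of any chromosome, and the cause was not tested. Their median GC content was 52.8%, against 48.2% for regions in all 4 and 51.2% for all. Their median width was 944 bp, that of regions in all 4 libraries 2612 bp.

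WT-only regions were weaker than shared ones. Their median summit fold was 4.45 in WT A and 3.98 in WT B, compared with 6.22 and 5.54 in the same libraries for the regions in all 4. The regions in all 4 had medians of 4.91 in KO A and 4.67 in KO B. A lower fold in a bulk library cannot separate fewer cells with the mark from less of the mark per cell. The distance from a WT-only region to the nearest KO peak had a median of 23.3 kb, and 704 of them (9.0%) had a KO peak within 500 bp.

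**Figure D3:**
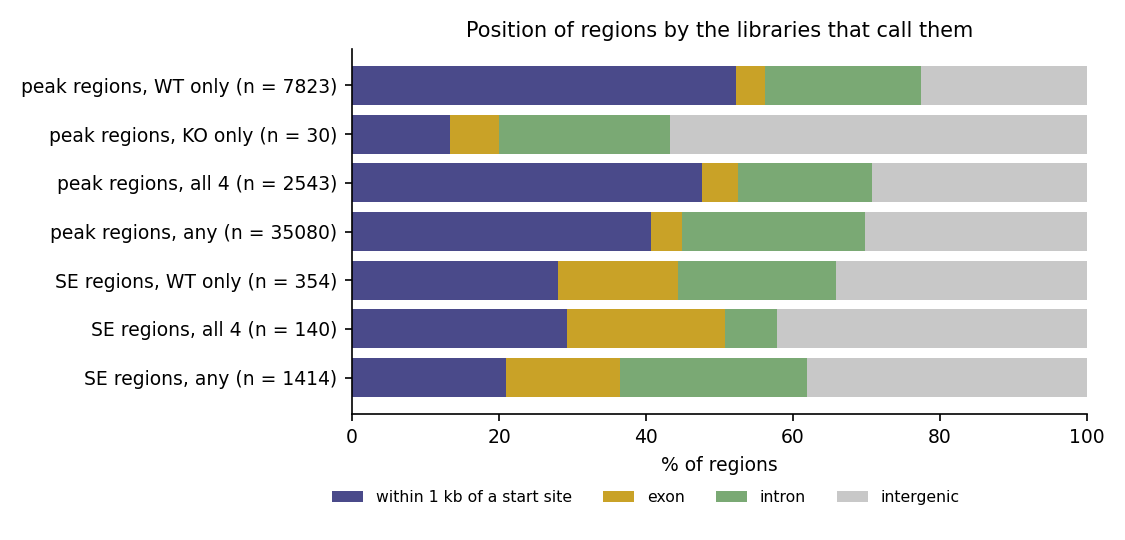
Stacked bars give the percentage of regions within 1 kb of a start site, in an exon, in an intron or between genes, for peak regions and SE regions by the libraries that list them. Start sites took 52.2% of WT-only and 13.3% of the 30 KO-only peak regions. The 4 KO-only SE regions are left out.

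The WT-only start site regions with the highest folds are given first. The region at RNF207, a RING finger protein gene, reached a fold of 13.2 in WT A and 8.05 in WT B at chr1:6204222-6207213, its closest KO peak 3.92 kb away. At SLC16A13, of the monocarboxylate transporter family, the folds were 7.73 and 8.08 (chr17:7036053-7037017). At BCKDK, the kinase that restrains breakdown of branched-chain amino acids, they were 8.99 and 7.62 (chr16:31107338-31109318). These folds chose the regions and are a description only. Other KO libraries did list them, RNF207 in 6 of 6 WT and 4 of 6 KO libraries, SLC16A13 in 5 and 3, and BCKDK in 5 and 2.

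The splicing regulator gene NSRP1 had folds of 7.25 and 7.37 in WT A and B, and no KO peak lay within 186 kb of this region (chr17:30116127-30118136). One region (chr19:17333221-17335513) held start sites of ANO8 and of GTPBP3, a mitochondrial tRNA modifier, with folds of 7.61 and 7.20, and a KO peak lay 1.0 kb from it. CCDC85C had folds of 7.19 and 7.39, and NSMCE1, a subunit of the SMC5/6 complex of DNA repair, 9.02 and 6.97. The region shared by BOLA2B and SLX1A, whose folds were 9.84 and 6.91, lies in sequence with 2 copies in the genome, so its reads cannot be assigned to one copy with certainty. WT A was higher than WT B in 5 of the 8 regions. Of the other 12 libraries, 6 WT and 4 KO listed the NSRP1 region and as many that of NSMCE1, 5 and 3 that of CCDC85C, 4 and 1 that of ANO8 and GTPBP3, and 3 and 2 that of BOLA2B and SLX1A.

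Among distal WT-only regions, the highest lay 49.7 kb from the start of APOD, a lipid-binding lipocalin, with folds of 10.3 in WT A and 9.76 in WT B (chr3:195633609-195635039), in sequence with 3 copies. A region 19.9 kb from ADRA2C, an adrenergic receptor gene, had 7.28 and 7.20, the NINJ2 intron 7.14 and 7.39, and an intron of ABR 7.22 and 6.85, the last in sequence with 22 copies. The region 161 kb from AKR1E2, an aldo-keto reductase gene, had 7.20 and 6.91 (chr10:4661881-4664970), and a region 144 kb from BCL6, a transcriptional repressor of the BTB zinc finger family, had 7.22 and 6.91. Of the other 12 libraries, the ADRA2C region was listed in 6 WT and 4 KO, NINJ2 in 6 and 3, ABR in 5 and 3, BCL6 in 4 and 3, APOD in 4 and 2, and AKR1E2 in 6 and 0.

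**Figure D4:**
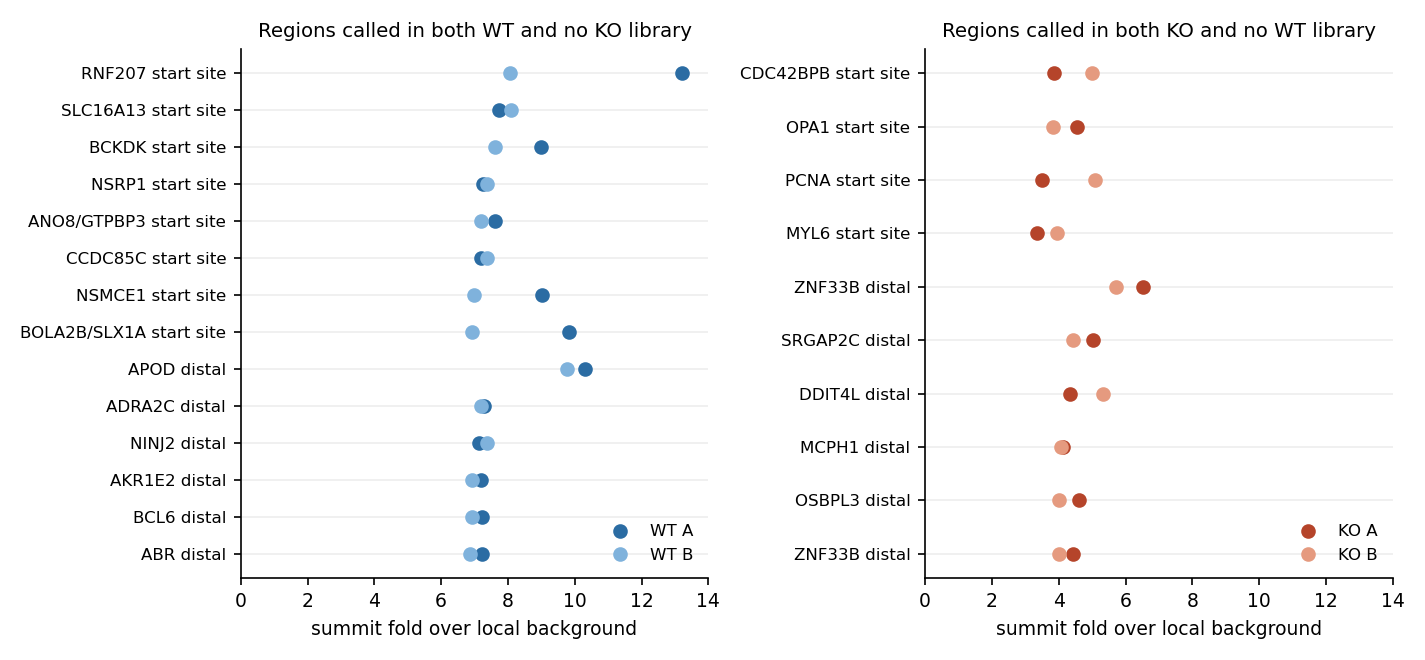
Points give the summit fold (ratio of pileup to local background, a small constant added to each) in each library that listed the region. Shown are the 8 strongest start site and 6 strongest distal WT-only regions and the corresponding KO-only regions. Named WT-only regions sat between 6.85 and 13.2, named KO-only regions between 3.35 and 6.53.

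KO-only regions were few and mostly lay between genes. Of the 30, 4 were within 1 kb of a start site (13.3%, exact binomial 95% interval 3.76% to 30.7%), 2 touched exons, 7 were in introns and 17 between genes. Their median folds were 4.11 in KO A and 4.0 in KO B. A WT peak lay within 500 bp of 12 of them, and merging the lists anew within 500 bp gave 19 KO-only regions. The start site share was 0% with the start site inside the region, 24.6% without WT A, 7.14% without WT B, 7.15% without KO A and 12.2% without KO B. Another 9 lay in sequence present more than once, 30% of the KO-only regions against 9.77% of all regions. Only 6 of the 21 single-copy regions had no WT peak within 5 kb, and these were nearest to or in RAD51AP2, PCNA, PROS1, DDIT4L, MUC3A and HAS2, named here after their values were seen.

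All 4 genes of the KO-only start site regions also had a start site peak in at least 1 WT library. PCNA encodes the sliding clamp of DNA replication, and its KO-only region (chr20:5120211-5120683) had folds of 3.5 in KO A and 5.09 in KO B. It lies near a downstream start site of the gene, 5.24 kb from the closest WT peak, while the highest start site folds of PCNA in WT A and B were 7.52 and 5.56. The region beside OPA1, a mitochondrial fusion GTPase, had 4.54 and 3.84, with a WT peak at a distance of 0.135 kb and a start site fold of 5.44 in WT A and none listed in WT B. CDC42BPB, a kinase that acts downstream of CDC42, had 3.86 and 4.99 at a distance of 0.052 kb from a WT peak, and MYL6, a myosin light chain, 3.35 and 3.94 at 0.544 kb. PCNA's region recurred in 4 WT and 5 KO libraries of the other 12, that of OPA1 in 5 WT and 1 KO.

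Both KO-only distal regions with the highest lower fold lay at centromeres. The first, at chr10:41088589-41088918, had 6.53 in KO A and 5.72 in KO B, and 3 more KO-only regions lay below it on the same chromosome, among them chr10:40603878-40604610 with 4.44 and 4.0 in sequence of 451 copies. The second, at chr1:122705580-122705912, had 5.03 and 4.44 in sequence of 2511 copies, and others on chromosomes 5 and 9 lay in sequence of 4055 and 1210 copies. In single-copy sequence, the region 108 kb from DDIT4L, a paralogue of a stress-induced inhibitor of mTOR, had 4.33 and 5.32 (chr4:100298199-100299076), an intron of OSBPL3, of the oxysterol-binding protein family, 4.62 and 4.02, and an intron of MCPH1, the microcephalin gene, 4.14 and 4.07. The DDIT4L region was 48.8 kb from the closest WT peak and those of OSBPL3 and MCPH1 were 0.031 and 0.027 kb from one.

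A single KO-only region was listed in every KO library and no WT library of the series. It lies at chr3:93470406-93470811, 503 kb from the start of PROS1, the gene of the anticoagulant protein S. Its folds were 2.69 in KO A and 2.21 in KO B, low for a peak, yet its −log10 p of 1729 and 1406 implied a summit pileup of about 11000 and 13000 reads. Across the other 6 KO libraries the fold ran from 2.28 to 3.57 and the pileup from about 9200 to 23000 reads. With folds this low, the local background there was also far above the lowest backgrounds of 1.52 and 1.5 reads in KO A and KO B. None of the 8 WT lists held a peak there. The labels list separate inputs for WT and KO cells, and no source used here names the input of each peak list, so genotype and input cannot be told apart.

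The 12 other libraries were not used to choose the regions. A WT-only region was listed in a median of 3 of 6 WT and 1 of 6 KO libraries, more WT than KO in 72.8% of regions and more KO in 9.23%. Over all 35080 regions these shares were 53.1% and 10.7%, and for regions in all 4 they were 66.0% and 5.62%. In esiHDAC4 UNT cells 18.0% of the WT-only regions were again WT only (8.0% of all regions), in esiHDAC4 OXPT cells 10.5% (4.64%), and in esiCT OXPT cells 3.46% (1.5%). KO esiCT OXPT A listed 54.3% of the WT-only regions and WT esiCT OXPT A 58.6%, while KO esiHDAC4 UNT B, the shortest list of 1752 peaks, held 0.818%. List length therefore moved with recurrence, and its part was not tested. Of the 30 KO-only regions, 14 were in more KO and 7 in more WT libraries, and 9 in equal numbers.

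An exact conditional test of presence, stratified by letter, was run on 15502 regions of the 16 lists that 3 to 9 of the other 12 libraries held. After Benjamini-Hochberg adjustment 0 regions were called more often WT (0%) and 0 more often KO (0%), and Fisher's exact test without the letters also called 0. The smallest p possible in the exact test was 0.005 and the smallest adjusted p 0.734. An adjusted p under 0.05 over 15502 regions would need very many regions at that smallest p. The 0 calls therefore decide little about any single region. At unadjusted p under 0.05, 279 regions were more often WT (1.80%) and 5 more often KO (0.0323%). Of 5507 tested regions that hold a WT-only region, 186 (3.38%) were more often WT and 0 more often KO, the AKR1E2 region among them with p = 0.005 in the exact test. Of 15 that hold a KO-only region, 1 was more often KO at that level.

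Where all 4 libraries listed a region, the summit folds could be compared. Being listed depends on the fold, and a KO peak at the lowest background needed a higher fold than a WT one. The choice of these regions therefore bears on the comparison of their folds, by an amount that was not tested. Over these 2543 regions the KO folds were lower as deposited, with a median log2 change of -0.27. In 1056 regions (41.5%) both KO folds lay below both WT folds, against 130 (5.11%) above. The constant added in the fold lowers it more where the background is low, as in both KO libraries, and its part was not tested. Each library was then centred on its median, so the changes are relative to it, and limma was fitted with the letter as a block. With 4 libraries this model leaves little spread per region, so its SEs and p-values lean on variance shared across regions. Adjusted p was under 0.05 for 2 regions higher in KO (0.0786%) and 0 lower in KO (0%), and at unadjusted p under 0.05 there were 125 and 63. Without centring there were 0 and 14, so the direction of the calls turns with the scaling. Without the block, with quantile normalization, at a mean fold of at least 5, and without any single library, 0 regions were called in either direction.

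Both regions higher in KO were distal. The first lies 17.7 kb from PMAIP1, a p53 target that encodes the pro-apoptotic BH3-only protein NOXA (chr18:59917735-59918411). Its folds were 2.87 in WT A and 2.29 in WT B, and 6.25 in KO A and 4.43 in KO B, so the groups did not overlap. Both WT folds lay under the 3.05 and 3.10 that a peak at the lowest background of WT A and WT B needed. The change was 1.33 ± 0.32 (SE) on the log2 scale with limma's adjusted p = 0.0404, and 3 of 6 other WT and 3 of 6 other KO libraries listed the region. At the start site of PMAIP1 itself the folds were 6.04 in WT A, 3.62 in WT B and 3.79 in KO A, with no peak in KO B. The second is on chromosome 10 at the centromere (chr10:40934542-40935025), in sequence with 252 copies. Its folds were 2.79 and 5.74 in WT A and B and 6.01 and 10.0 in KO A and B, so KO A lay close to WT B. The change was 1.25 ± 0.30 (SE) on the log2 scale with limma's adjusted p = 0.0404. Both calls were lost without the block, where limma's smallest adjusted p was 0.185.

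The smallest p among regions lower in KO belonged to one 28.6 kb from PLEKHG6 and to the start sites of SFXN1, a mitochondrial serine transporter, and RBM39, a splicing factor. Near PLEKHG6 the folds were 9.57 in WT A, 7.78 in WT B, 4.17 in KO A and 3.09 in KO B. SFXN1 had 7.87, 8.57, 3.11 and 3.84, and RBM39 10.5, 8.71, 3.85 and 4.85, in the same order. Both KO values lay under both WT values in each of these regions, but limma's adjusted p was 0.336 for the first and 0.348 for SFXN1 and RBM39.

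The WT-only SEs are described from the longest down. The longest WT-only SE spanned 96.7 kb at SMAD3, a signal transducer of TGF-beta, and held 17 peaks in WT A and 17 in WT B, 5 in KO A and 0 in KO B (chr15:67024858-67121592). It was listed as an SE in 5 WT and 1 KO of the other 12 libraries, and the second longest in 6 and 4. The second, of 81.2 kb, was 549 kb from DIPK2B on the X chromosome, with 25 and 22 WT peaks and 4 and 4 KO peaks. Those at ANXA10, an annexin gene (62.7 kb), and at CARD10 and CDC42EP1 (59 kb) had 17 and 11, and 13 and 15, WT peaks, and 6 and 5, and 4 and 3, KO peaks in A and B. The other libraries listed the former in 4 WT and 3 KO and the latter in 2 WT and 4 KO, the opposite order. At F2RL1, which encodes the protease-activated receptor PAR2, the SE spanned 55.4 kb with 9 and 17 WT peaks and 5 and 2 KO peaks, and in the other 12 libraries it was listed in 3 WT and 0 KO. An SE of 56.9 kb at POU5F1B, in the enhancer region upstream of MYC, had 7 and 7 WT peaks against 2 in KO A and 1 in KO B, and was listed in 4 WT and 1 KO of the others.

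Across conditions neither the WT-only SEs nor all SE regions together kept one direction. In esiHDAC4 UNT cells 20.6% of the 354 were again WT only and 0% KO only, against 9.05% and 0.141% of all SE regions, and in esiHDAC4 OXPT cells 8.47% and 0%, against 4.38% and 0.354%. In esiCT OXPT cells 3 (0.847%) were WT only and 21 (5.93%) KO only, against 0.354% and 6.29% of all. The order thus turned there for all SE regions as well. The SE lists of that condition held 930 and 435 SEs in KO A and B, and 394 and 284 in WT A and B. For WT-only peak regions in esiCT OXPT cells, 3.46% were WT only and 1.48% KO only.

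Many WT-only SEs held peaks in KO. Of the 354, 286 (80.8%) held at least 1 peak in KO A and 216 (61.0%) in KO B, while 68 and 138 held none, with a median of 2 and 1 peaks against 5 in each WT library. Their span was covered by peaks to a median of 32.3% in WT A and 28.8% in WT B, and to 5.38% in KO A and 1.93% in KO B. The 4 KO-only SEs lay near GPR15 (39.1 kb), in HM13 (11.9 kb), in FAM241A (6.21 kb) and 161 kb from TACR3 (5.80 kb). WT peaks covered a median of 87.2% and 95.2% of these spans in WT A and B, more than the 49.4% and 48.7% of KO A and B, but in fewer peaks. The median number of peaks in them was 2.5 in WT A, 1.5 in WT B, 7.5 in KO A and 5 in KO B, and all 4 spans held more peaks in each KO library than in either WT library.

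At the level of genes, the lists were read at the start sites of 19609 protein-coding genes. A start site peak was listed in all 4 libraries for 1268 genes (6.47%), in both WT and neither KO library for 3480 (17.7%), and in both KO and neither WT library for 0. Of the 8808 genes with a start site peak in both WT libraries, the 3480 had none in KO. For 8269 genes no library listed one, and the remaining 6592 had other mixtures. FBXW7 itself had a start site fold of 5.04 in WT A and 2.79 in WT B and none listed in KO A or KO B, which does not check the knockout, because acetylation does not report a deletion. HDAC4, the class IIa deacetylase that the study follows, had 5.04 and 4.17 in WT A and B and no start site peak in KO, although 8 and 2 peaks were listed within 10 kb of the gene body in KO A and B. MYC had 5.56, 5.93 and 7.88 in WT A, WT B and KO A and none in KO B.

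Of 22 genes whose proteins FBXW7 targets, 4 were listed in all 4 libraries (6.47% of all genes were) and 5 were WT only (17.7% of all genes were), and 17 had a peak in both WT libraries. The WT-only ones were CCNE1, cyclin E1, with folds of 4.70 in WT A and 6.67 in WT B, JUN with 6.43 and 5.89, KLF2 with 4.70 and 4.05, SREBF2, a master regulator of cholesterol synthesis, with 7.65 and 5.52, and the kinase MTOR with 5.09 and 4.26. Those in all 4 were the survival factor MCL1 (6.24, 6.97, 4.39 and 5.32 in WT A, WT B, KO A and KO B), SREBF1, TGIF1 and HSF1. Of 12 SCF ligase genes, each with a peak in both WT libraries, 5 were WT only and 1, CKS1B, was in all 4, to be read beside the 3480 of 8808 among all genes. Besides FBXW7 these were the RING subunit RBX1 (7.42 and 6.26), SKP2 (4.79 and 5.01), BTRC (6.92 and 5.45) and CAND1 (4.02 and 4.52).

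Signalling genes are given by pathway. Of all genes 6.47% were in all 4 libraries and 17.7% were WT only. Of the 8808 genes with a start site peak in both WT libraries, 3480 were WT only. In the EGFR family, 5 of 11 genes were in all 4 libraries and 0 were WT only, the former being ERBB2, AREG, EREG, TGFA and the feedback inhibitor ERRFI1. EREG, a ligand of EGFR, had folds of 8.87, 9.23, 9.95 and 8.53 in WT A, WT B, KO A and KO B, with KO A above and KO B below both WT values. Of 18 WNT target genes 6 were in all 4, among them RNF43 (6.91, 8.28, 4.81 and 7.29 in the same order) and AXIN2 (5.93, 4.29, 7.33 and 4.68), both negative regulators of the pathway, and only the receptor gene EPHB2 was WT only (4.11 and 3.81). In the TGF-beta pathway 11 of 14 had a start site peak in both WT libraries, and 5 were WT only. Among the 5 were TGFBR1 (6.93 and 3.87), SMAD4 (5.45 and 3.82), SMAD6 (5.14 and 3.65) and SMAD7 (6.48 and 3.88). TGFBR2 and TGIF1 were in all 4.

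No NOTCH pathway gene was in all 4 libraries, and 3 of 16 were WT only, beside 6.47% and 17.7% of all genes. HES1 (3.58 and 3.23) and MAML1 (5.97 and 3.26) were among the WT-only genes. In the YAP and TEAD pathway TEAD4 (4.43 and 5.24), CCN1 (6.01 and 2.12) and LATS2 (6.65 and 2.42) were WT only and YAP1 was in all 4, of 13 genes. In WT B, CCN1 and LATS2 had folds under the 3.10 that a peak at the lowest background needed. The same holds in WT B for the WT-only genes FBXW7 (2.79), CDK4 (3.03) and SDHB (3.02) of other lists. MAFK (6.93 and 5.01) and JUN were the WT-only genes of the 15 AP-1 and ATF members, and HDAC4 and HDAC5 (6.93 and 5.27) those of the 8 class IIa deacetylase and MEF2 genes. Among these lists the number in all 4 was 1 for YAP and TEAD, 2 for AP-1 and ATF (JUND and MAFF) and 1 for the deacetylase and MEF2 genes (MEF2C).

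Genes of the cell cycle, apoptosis and repair follow, to be read beside 6.47% of all genes in all 4 libraries and 17.7% WT only. Of 16 G1/S genes, CCND3 (4.61 and 4.49), CCNE1, CDK4 (5.53 and 3.03), E2F2 (3.86 and 4.23) and RB1 (5.80 and 4.17) were WT only, and CCND1, CDK2, CDKN1A and CDKN1B were in all 4. CDKN1A, which encodes the inhibitor p21, had 6.16 and 4.68 in WT A and B and 4.97 and 6.29 in KO A and B, so the groups overlapped. Of 20 p53 targets 5 were in all 4 (CDKN1A, MDM2, GADD45A, BAX and FDXR) and SESN1 (5.28 and 4.18), ZMAT3 (4.20 and 4.65) and RRM2B (5.71 and 4.15) were WT only. In the BCL2 family BCL2L2 (5.71 and 5.49) and BAK1 (5.43 and 4.4) were WT only, while BCL2L1, MCL1 and BAX were in all 4, of 15 genes. Of 16 genes of platinum transport and DNA repair, ATP7B (5.64 and 5.05), XPA (4.57 and 3.44), BRCA1 (7.40 and 6.46) and FANCD2 (5.46 and 4.18) were WT only, and ERCC1, an excision repair endonuclease subunit, was in all 4 (8.41, 4.85, 8.11 and 8.36 in WT A, WT B, KO A and KO B).

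Housekeeping and lineage genes gave the frame for these counts, beside 6.47% of all genes in all 4 libraries and 17.7% WT only. Of 20 ribosomal protein genes 8 were in all 4 libraries and RPL10A (6.50 and 6.43), RPL32 (5.29 and 6.21) and RPS2 (8.95 and 5.91) were WT only. Of 18 oxidative phosphorylation genes 2 were in all 4 and 5 WT only, NDUFB8, NDUFA9, SDHA, SDHB and COX5B, with WT folds from 3.02 to 7.25. Of 12 keratin and junction genes, KRT8, KRT18, EPCAM and CLDN4 were in all 4 and CDH1 (5.82 and 3.67) and CLDN3 (3.80 and 6.20) were WT only. Of 18 genes listed as intestinal transcription factors, SOX9 was in all 4, as was ESRP1, which encodes a splicing regulator. From that list ELF3 (6.49 and 5.33) and EHF (3.92 and 4.15) were WT only. The mesenchymal genes ZEB1 (6.68 and 4.52), SNAI1 (6.18 and 4.18) and COL1A1 (3.61 and 4.36) were WT only and none of the 12 in that list was in all 4. The intestinal factor CDX2 was listed in WT A, WT B and KO A (7.26, 4.17 and 3.75), while 0 of 8 blood and 0 of 8 muscle markers were listed in any of the 4 libraries and 2 of 8 neuronal markers were, TUBB3 and SYT1. KO-only genes numbered 0 in every list, and no test was made of one list against another.

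**Figure D5:**
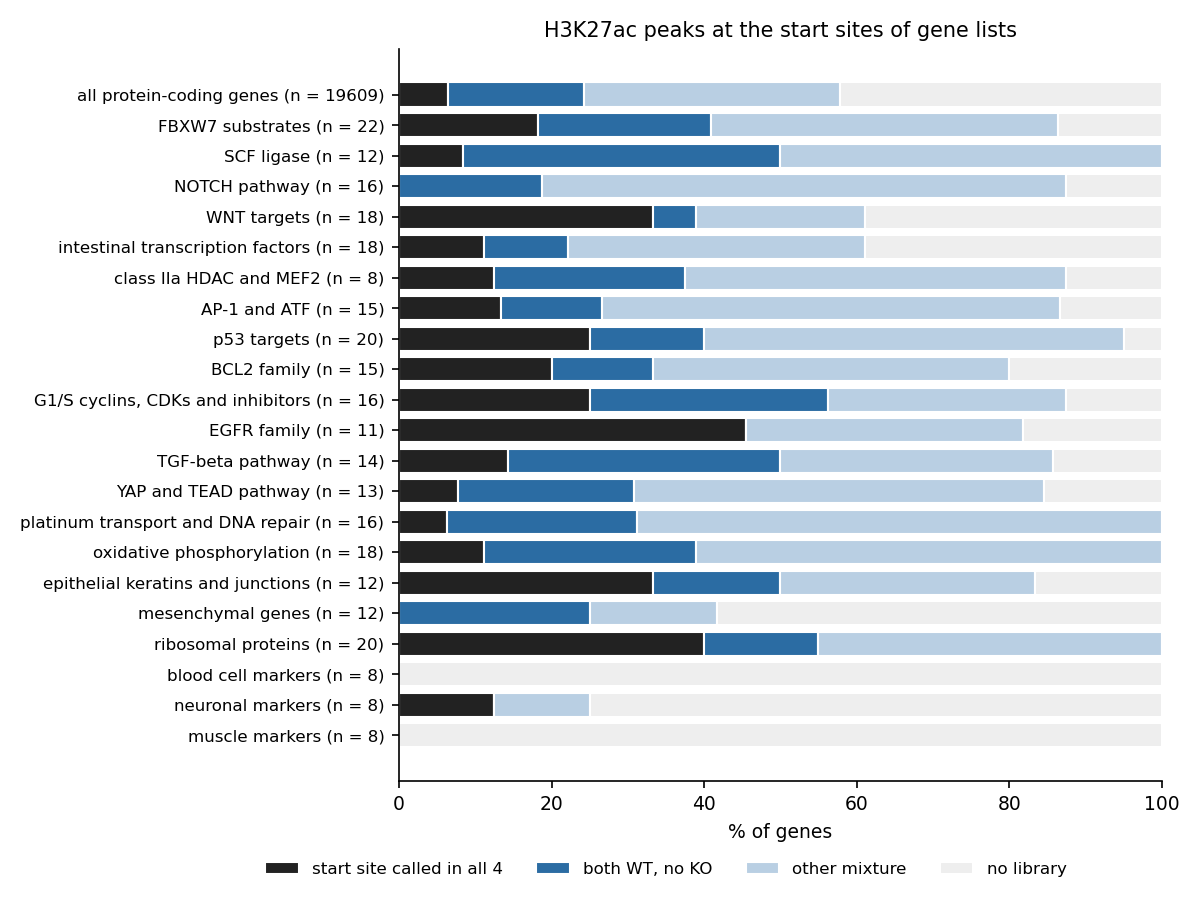
Stacked bars give, for each gene list and for all protein-coding genes, the percentage of genes with a start site peak in all 4 libraries, in both WT and no KO library, in another mixture or in none. All 19609 genes had 6.47% in all 4 and 17.7% WT only, and the EGFR family 5 of 11 and 0.

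Sequence was read for motif letters on both strands, over 150 bases to each side of a summit. For AP-1 the letters were TGANTCA, and for the related CRE they were TGACGTCA. TCF/LEF was searched as ATCAAAG, the GATA factors as AGATAA, and the ETS factors as CCGGAAG. The KLF/SP box was GGGCGG, the E-box CACGTG, and the TEAD box GGAATG. The forkhead factors (FOX) were searched as GTAAACA, the nuclear receptor HNF4 as CAAAGTC, the NOTCH effector RBPJ as GTGGGAA, and MEF2 by its usual box. Matches of different motifs may overlap. At start sites the KLF/SP letters were in 43.1% of WT-only windows, 38.5% of those in all 4 and 44.5% of all regions. The ETS letters were in 5.95%, 5.03% and 5.63%. In distal windows the AP-1 letters were in 10.2% of WT-only regions, 8.56% of those in all 4 and 9.83% of all, the GATA letters in 15.5%, 18.4% and 15.8%, the MEF2 letters in 5.80%, 7.44% and 5.84%, and the TCF/LEF letters in 4.01%, 4.58% and 3.76%. Of the 26 KO-only distal windows, 5 held the TEAD letters (19.2%, against 15.4% of all distal regions) and 2 each the AP-1, GATA, KLF/SP, E-box and MEF2 letters. A match is letters only, not a site of binding.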

How the data were processed

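H3K27ac peak and SE lists of 4 libraries were compared, and those of 12 others served as libraries not used to choose regions. Per the study's methods and the submitters' processing notes, Trimmomatic 0.39 trimmed the reads, Bowtie2 2.4.4 placed them on hg38, SAMtools 1.18 removed duplicates, MACS2 2.2.7.1 called peaks and ROSE stitched SEs. Whether the deposited SE lists had passed an H3K4me1 filter could not be told. The deposited peak lists give a score made from the q-value, a fold (ratio of summit pileup to local background) and −log10 values of p and q (p-value, q-value). For SEs, positions alone were deposited. No count model was fitted, since these lists hold no read counts.

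Peaks on chromosomes 1 to 22 and X were kept (20 to 32 peaks per library on other contigs were left out). Start sites came from protein-coding transcripts of GENCODE version 44. Depth was solved from fold and p of each peak under the Poisson model of MACS2, with a tolerance of 0.01 on −log10 p, and 99.9% to 100% of peaks per library gave a whole number of reads. Numbers were compared with exact permutation tests, log2 folds in the 2543 regions of all 4 libraries with limma 3.58.1 (R 4.3.3, eBayes with trend, median centring, letter as block, Benjamini-Hochberg, threshold 0.05), and presence in the other libraries with an exact conditional test. Letters entered because the study's own model has a replicate term. The A minus B deviations in WT and in KO correlated with r = 0.04 over the 2543 regions, which share libraries, so in summit fold the letters did not deviate together, although GC content separated them. Alternatives covered list length, thresholds, merging, scaling, the block and each library left out. The depth solution, the limma fit and the presence test were each tested on simulated data. The simulated data of the presence test held many complete switches, so they do not show that the test could call few. The 4 input samples were not used.

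Named are, per side, the 8 start site and 6 distal switched regions with the largest lower fold of their 2 libraries, the 6 longest SEs, members of the 21 gene lists at switched start sites, up to 5 regions per direction past the threshold of the fold test (if none, the 3 of smallest p), and FBXW7, HDAC4 and MYC. The members and lists were chosen with earlier results of these data known. A few items that this rule names are not reported here.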

Additional observations from a re-analysis of the deposited data

How the results depend on the processing

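Peak numbers were lower in KO under every alternative run, with a mean log2 ratio from -3.99 at −log10 q of at least 10 to -1.32 with thinned reads, and -2.05 to -1.14 when 1 letter was left out. SE numbers gave -2.22 to -1.40 when 1 letter was left out, but -0.22 per 1000 peaks. No replicate block left both ratios as they were, with p = 0.333 in the exact permutation test.

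Counts of WT-only and KO-only peak regions were 798 and 200 with lists of equal length, 1913 and 1 at −log10 q of at least 10, and, in alternatives chosen after seeing the data, 4844 and 55 for peaks with a fold of at least 3.6 and 5567 and 49 with thinned reads. Merging within 500 bp gave 6431 and 19. Leaving out 1 library gave 8667 to 18360 and 79 to 1876, and for SE regions 403 to 942 and 5 to 21. A fold of at least the highest of the lists' lowest folds, 1.44, left the log2 ratio of peak numbers at -1.60. The start site share of WT-only regions was 54.9% within 2500 bp and 23.6% with the start site inside the region, that of KO-only regions 0% in the latter, and leaving out 1 library gave 39.1% to 59.5% and 7.14% to 24.6%, in an alternative chosen after seeing the data.

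The 2 regions higher in KO became 0 with no replicate block, quantile normalization, no centring, a mean fold of at least 5 or 1 library left out (0 to 0), and 6 with a pseudocount of 1. The 0 regions lower in KO became 14 with no centring and stayed 0 (0 to 0) without each library. Presence in the other 12 libraries gave 0 calls under each alternative, including no replicate block. With a library left out, the fold test had no block and assumed the lone sample of its group to vary like the others. Depth limits what absence from a KO list shows, and no cause was tested.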
